A study of Rattus norvegicus with 6 samples.

Results

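The genes described here encode parts of the desmosome, the cell junction that anchors intermediate filaments, and were the 10 named genes Dsp, Jup, Dsc2, Dsc3, Dsg2, Pkp1, Pkp2, Pkp3, Pkp4 and Perp. The rule selects them by gene name and uses no measured value, although the set was proposed with earlier results of these data known. Of the 10, 8 had a probe set with that single gene symbol, out of 18166 genes with a value, and each of the 8 had 1 probe set. Dsp, which encodes the filament linker desmoplakin, and Pkp4, a plakophilin-related gene, are not analysed here.

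The cells were NRK-52E, an epithelial line derived from rat kidney tubules, grown in DMEM with fetal calf serum. RNA was hybridised to 6 arrays, of which 3 held control RNA and 3 held RNA of cells that overexpressed the Notch1 intracellular domain (NICD1) from pINDUCER21, a vector of an inducible lentiviral series. NICD1 is the part of the receptor that is released by cleavage and acts in the nucleus with the DNA-binding protein RBPJ. The labels leave unstated what the control cells carried, whether an inducer was added and whether either group was a clone. They also do not say that replicates were separate cultures, so p-values here reflect sample-to-sample spread that could be technical only.

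A desmosome is built from transmembrane cadherins, the desmogleins and desmocollins, whose outer parts bind those of the next cell. Inside the cell their tails bind plakoglobin, encoded by Jup, and the plakophilins, which are armadillo-repeat proteins of the plaque. Desmoplakin links that plaque to keratin filaments, and Perp is a tetraspan membrane protein needed for desmosomes in stratified epithelia. In simple epithelia such as the kidney tubule, Dsg2, Dsc2 and Pkp2 are the usual forms, while Pkp1 and Dsc3 are better known from stratified epithelia.

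The arrays had median linear intensities from 57.5 to 60.1. Control replicate 1 stood apart on the second principal component, at 16.2, against -7.35 and -8.99 for the other controls. The targeted gene, Notch1, was at log2 intensities of 8.66, 8.39 and 8.51 in control cells and 9.15, 9.12 and 9.26 in NICD1 cells. Its groups did not overlap, and it rose by 0.66 on the log2 scale (SE 0.081; limma adjusted p = 0.00181). Where its probes lie relative to the introduced domain is unstated, so this value does not separate the cell's own transcript from the construct. Of 10 measured tubule epithelium markers, Krt8, Aqp1 and Pax2 lay above the background level in both groups, and the other 7, Cdh1, Cdh16, Epcam, Krt18, Pax8, Lrp2 and Slc34a1, lay below it in both. That background level, 5.74 on the log2 scale, was the 95th percentile of 1382 chemosensory receptor genes, and the deposited table gives no detection call.

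In NICD1 cells 3 desmosomal genes were higher, all of them armadillo-repeat genes of the plaque: plakoglobin (Jup, 1.41-fold), plakophilin 1 (Pkp1, 1.53-fold) and plakophilin 2 (Pkp2, 1.26-fold). Plakophilin 3 (-0.11 on the log2 scale), also an armadillo-repeat gene of the plaque, and Perp (-0.13) were measurable but did not pass the test. The 3 desmosomal cadherins Dsg2, Dsc2 and Dsc3 lay below the background level in both groups. Thus 3 of 8 measured members passed upward and 0 downward (limma, Benjamini-Hochberg adjustment over all genes), and at an unadjusted p under 0.05 the counts were also 3 and 0. Over all genes 7.45% were called higher, 7.22% lower and 14.7% in either direction. The median log2 difference of the 8 members was 0.10, against 0.01 over all genes tested. That median lies between the values of Dsg2 (0.10) and Dsc2 (0.11), both below background, so it does not describe the measurable members. The counts of 3 and 0 held when any 1 array was left out. The groups did not overlap for 3 of the 8, with NICD1 above control each time, and over all genes this was so for 32.8%, with NICD1 above in 17% and below in 15.7%.

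**Figure D1:**
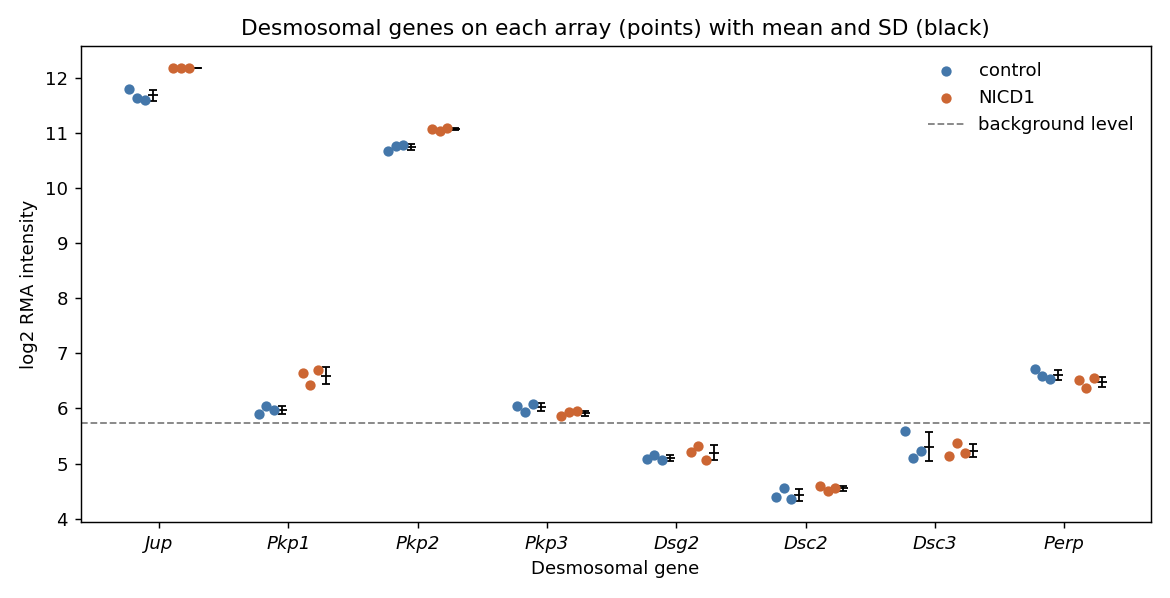
Log2 RMA intensity (vertical axis) of the 8 measured desmosomal genes (horizontal axis) on each of 3 control and 3 NICD1 arrays, with the mean and SD in black and the background level of 5.74 as a dashed line. Jup, Pkp1 and Pkp2 separate by group, and Dsg2, Dsc2 and Dsc3 lie under the line. Heights of different genes come from different probes and cannot be ranked against each other.

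Jup and Pkp1 have an entry among the RefSeq promoter sequences of the rat build GRCr8 and are shown because their transcripts moved the same way. Pkp2, which also rose, and Pkp3 had no entry there. The promoters of Dsg2, Dsc2 and Dsc3 were not searched. Each window runs from 250 bases before to 50 bases after the annotated start, on the gene's own strand. Capitals mark a match to any of 3 motifs searched on both strands: the RBPJ core TGGGAA, the E-box CACCTG bound by Snail and Zeb repressors, and the grainyhead-like site AACCNGTT.
Jup, chr10:85827380-85827679, minus strand: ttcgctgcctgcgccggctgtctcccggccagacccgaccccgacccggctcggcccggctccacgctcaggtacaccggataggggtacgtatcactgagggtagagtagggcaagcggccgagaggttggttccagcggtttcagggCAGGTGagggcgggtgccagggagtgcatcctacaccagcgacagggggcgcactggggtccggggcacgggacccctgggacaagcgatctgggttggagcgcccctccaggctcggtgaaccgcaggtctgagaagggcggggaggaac
Pkp1, chr13:49909113-49909412, minus strand: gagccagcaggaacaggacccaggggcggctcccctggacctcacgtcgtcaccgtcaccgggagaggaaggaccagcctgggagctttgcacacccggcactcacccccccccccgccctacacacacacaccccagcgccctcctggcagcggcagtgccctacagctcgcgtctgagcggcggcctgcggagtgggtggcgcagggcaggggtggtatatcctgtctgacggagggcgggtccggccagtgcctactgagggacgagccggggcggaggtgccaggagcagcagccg

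The Jup window held 1 E-box match, written there as its reverse complement, its first base at position -101 counted from the start, and no match to the other motifs. The Pkp1 window held none of the 3. The Perp window, whose transcript did not pass the test, also held 1 E-box match, at position -208. Among all 33469 promoters of this length, 25.7% held the RBPJ core, 18.8% the E-box and 2.1% the grainyhead-like site. GC content was 69% for Jup and 71.3% for Pkp1. These windows cover only the sequence next to the start, and enhancers are not covered.

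Jup (Entrez gene 81679) encodes plakoglobin, which joins desmosomal cadherin tails to desmoplakin and also binds classical cadherins. Its log2 intensity was 11.80, 11.63 and 11.60 on the control arrays and 12.17, 12.17 and 12.18 on the NICD1 arrays. The groups did not overlap, the NICD1 arrays lay almost on 1 value, and control replicate 1 was the highest control. The mean went from 11.68 ± 0.11 to 12.17 ± 0.01 (SD, n = 3 each), a rise of 0.50 on the log2 scale (SE 0.066, 95% interval 0.34 to 0.65; limma adjusted p = 0.00247).

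Pkp1 (Entrez gene 304822), a plakophilin abundant in stratified epithelia that strengthens desmosomes, had log2 intensities of 5.91, 6.05 and 5.97 in control cells and 6.65, 6.42 and 6.70 in NICD1 cells. Every control array lay just above the background level, and every NICD1 array lay above every control. The mean rose by 0.61 on the log2 scale (SE 0.087, 95% interval 0.41 to 0.82; limma adjusted p = 0.00348), from 5.98 ± 0.07 to 6.59 ± 0.15 (SD, n = 3 each).

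Pkp2 (Entrez gene 287925), the plakophilin of simple epithelia and heart muscle, had log2 intensities of 10.68, 10.76 and 10.78 in control cells. In NICD1 cells they were 11.07, 11.04 and 11.09. The groups did not overlap, and the gap between the highest control and the lowest NICD1 array was wider than the range within either group. The mean rose by 0.33 (SE 0.054, 95% interval 0.20 to 0.46; limma adjusted p = 0.00679), from 10.74 ± 0.06 to 11.07 ± 0.03 (SD, n = 3 each). Pkp2 was the smallest of the 3 rises.

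Pkp3 (Entrez gene 293619), a plakophilin of most simple and stratified epithelia, had log2 intensities of 6.05, 5.94 and 6.09 in control and 5.86, 5.93 and 5.95 in NICD1 cells. The groups overlapped. The difference of -0.11 (95% interval -0.26 to 0.03) did not pass (limma adjusted p = 0.304). That interval lies below those of Pkp1 and Pkp2, and the difference between the plakophilins was not tested.

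Perp (Entrez gene 292949), a tetraspan protein that is also a transcriptional target of p53 and p63, had log2 intensities of 6.71, 6.58 and 6.53 in control and 6.51, 6.37 and 6.55 in NICD1 cells. The groups overlapped, and control replicate 1 was the highest array. The difference was -0.13 (95% interval -0.31 to 0.04; limma adjusted p = 0.329). With its limma SE of 0.075, a difference of 0.28 would have passed.

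**Figure D2:**
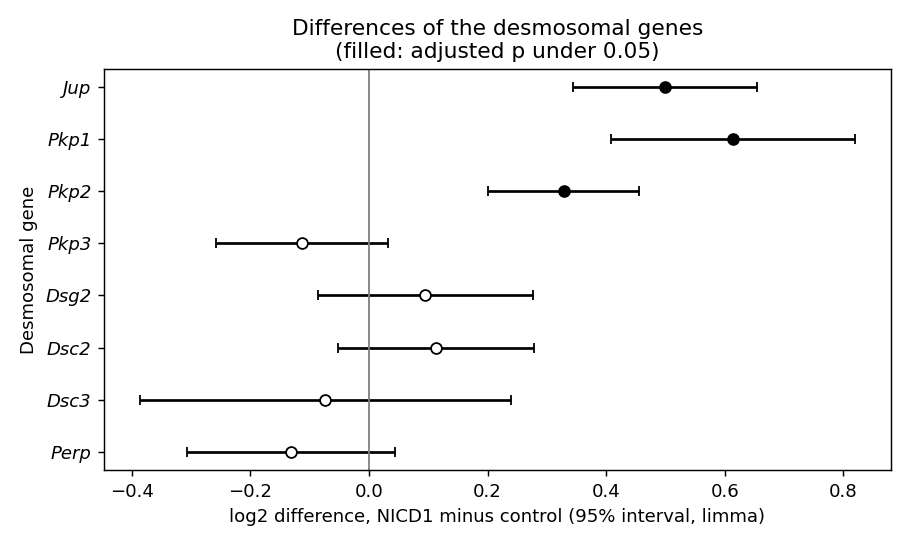
Log2 difference, NICD1 minus control (horizontal axis), with the 95% interval from limma for each of the 8 measured desmosomal genes (vertical axis). Filled points passed at an adjusted p under 0.05. The intervals of Jup (0.34 to 0.65), Pkp1 (0.41 to 0.82) and Pkp2 (0.20 to 0.46) lie above 0, and the other 5 include it.

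The desmosomal cadherins were dim on every array. Dsg2 (Entrez gene 307562), the most widely expressed desmoglein, was at 5.08, 5.16 and 5.06 in control and 5.21, 5.32 and 5.06 in NICD1 cells (log2 intensity). Dsc2 (Entrez gene 291760), the desmocollin paired with it in simple epithelia, was at 4.39, 4.56 and 4.36 in control and 4.59, 4.49 and 4.56 in NICD1 cells. Dsc3 (Entrez gene 307563), a desmocollin of basal stratified layers, was at 5.60, 5.09 and 5.23 in control and 5.14, 5.36 and 5.19 in NICD1 cells. In all 3 the groups overlapped and every array lay below the background level, so no fold is given. The measured log2 differences were 0.10 for Dsg2, 0.11 for Dsc2 and -0.07 for Dsc3 (limma adjusted p = 0.508, 0.378 and 0.793). The sign for Dsc3 rested on control replicate 1, without which its difference was 0.07. A probe set at background does not show that the transcript was missing.

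The cadherins of the same family that mark stratified epithelia were also dim. Of 8 genes in a list of the remaining desmosomal cadherins with corneodesmosin, 3 were measured, Dsg1, Dsg3 and Dsg4, and all 3 lay below the background level in both groups. Their differences of 0.17, 0.16 and -0.0033 did not pass (limma, 0 of 3 called, and 1 of 3 at an unadjusted p under 0.05, Dsg1). By gene order in GRCr8, Dsc3, Dsc2, Dsg1, Dsg4, Dsg3 and Dsg2 followed each other among the measured genes. On the other side of Dsc3 came Dmtf1l1 (0.12, limma adjusted p = 0.575), which did not pass. Beyond it lay Cdh2, the N-cadherin gene, which rose by 1.32.

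Among the genes that connect the plaque to the cytoskeleton, the largest differences measured were those of keratins. Of 10 measured intermediate filament genes, 3 rose and 1 fell (limma, 3 higher and 3 lower at an unadjusted p under 0.05). The differences of the 10 were positive for 5 and negative for 5. Krt14 and Krt17, keratins of basal and activated stratified epithelium, rose by 2.62 (SE 0.053) and 2.28 (SE 0.106) on the log2 scale. Krt8, a keratin of simple epithelia, rose by 1.08 (SE 0.055), and Krt80 fell by 0.31 (SE 0.080; limma adjusted p = 0.0450). No filament gene fell (count 0) once replicate 1 or replicate 3 of either group was dropped, and 2 fell once NICD1 replicate 2 was dropped. Of 3 measured plakin linkers, periplakin (Ppl), which binds intermediate filaments beside the desmosome, fell by 0.81 (SE 0.063; limma adjusted p = 0.000200). Envoplakin (Evpl, -0.17) and plectin (Plec, -0.02) did not pass.

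Other junctions of the same cells gave mixed counts. Of 15 classical cadherins and catenins, Cdh2 and the nectin Nectin3 (0.42, SE 0.080) rose and P-cadherin, Cdh3, fell by 0.27 (SE 0.048). Cdh1 (-0.06) lay below background, and the β-catenin gene Ctnnb1, the closest relative of Jup, had a value of 0.07 (95% interval -0.05 to 0.18; limma adjusted p = 0.443). Dropping NICD1 replicate 1 or 2 left 1 rise, and dropping control replicate 3 gave 2 falls. The hemidesmosome, the junction that anchors keratins to the matrix, was represented by 6 measured genes. Of these, the laminin chains Lama3 and Lamb3 rose by 1.18 (SE 0.060) and 1.17 (SE 0.052). The list had 0 falls (limma, 3 higher and 1 lower at an unadjusted p under 0.05). That lower gene was Itgb4 at -0.34, and Cd151 (0.15) was among the 3 higher. With the adjustment, Itgb4, Cd151, Itga6 (-0.07) and Col17a1 (-0.02, below background) did not pass. Itgb4 fell without NICD1 replicate 3, a count of 1. Of the 5 relatives of Perp, 0 passed (limma, 2 higher and 2 lower at an unadjusted p under 0.05), with Pmp22 at 0.35, Emp1 at -0.19 and Emp2 at -0.29, and 1 rose without control replicate 1.

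**Figure D3:**
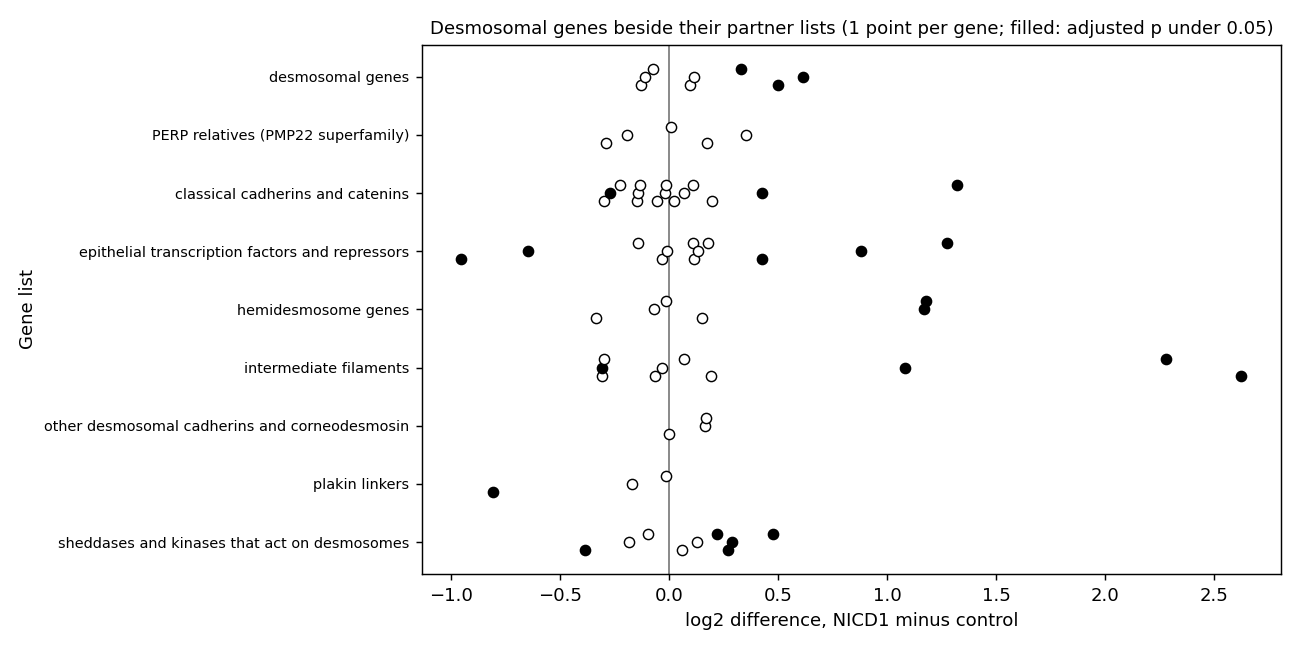
Log2 difference, NICD1 minus control (horizontal axis), for every measured gene of the desmosomal set and of 8 partner lists (vertical axis), with 1 point per gene and filled points at an adjusted p under 0.05. The desmosomal rises, from 0.33 to 0.61, are smaller than those of Krt14 (2.62), Krt17 (2.28), Lama3 (1.18) and Cdh2 (1.32).

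Among 12 measured transcription factors known to act on epithelial junction genes, the test called 3 higher and 2 lower. The repressors Snai1 and Zeb2 rose by 1.27 (SE 0.085) and 0.88 (SE 0.110), the latter from below background, and the grainyhead-like factor Grhl1 rose by 0.43 (SE 0.065; limma adjusted p = 0.00495). Klf4 fell by 0.96 (SE 0.052) and Klf5 by 0.65 (SE 0.064), both Kruppel-like factors of epithelia. Tp63, an activator of Perp, lay below background in both groups and had a value of 0.13. Of 9 measured sheddases and kinases that act on desmosomes, 4 rose, Egfr (0.47), Adam9 (0.29), Gsk3b (0.27) and Prkca (0.22), and Adam15 fell by 0.39 (SE 0.055). The count of rises was 1 when NICD1 replicate 2 was dropped, and 2 when any of the other arrays except control replicate 1 was dropped.

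Markers of stratified epithelium were examined beside the rise of Pkp1. Of 5 measured, 1 rose, Krt14, while Tp63, Dsg3 and Krt1 lay below background in both groups. The mean log2 intensity of that list ranged from 5.67 to 5.83 over the control arrays and from 6.24 to 6.40 over the NICD1 arrays. Krt14 accounts for most of that shift, since the other 4 had differences from -0.12 to 0.16 and did not pass. The part of these markers in the result was not tested. Of 7 fibroblast and pericyte markers 1 rose, Col1a1 (0.90), of 5 leukocyte markers 1 rose, Cd68 (0.27), and of 4 endothelial markers 1 fell, Tek (-0.57). Above background in both groups were Pdgfrb, Col1a1 and Rgs5 among the fibroblast and pericyte markers, Cd14 and Cd68 among the leukocyte markers and Tek among the endothelial markers. The others of these lists, Pdgfra, Col1a2, Dcn, Lum, Ptprc, Itgam, Cd3e, Cdh5, Vwf and Emcn, lay below it in both.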

How the data were processed

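The 6 arrays were grouped by their titles. The deposited values are RMA intensity values on a linear scale, 1 per probe set and array, and the submitters' processing notes name RMA and Affymetrix Expression Console. RMA subtracts background, gives all arrays 1 distribution and summarises probes, so a shift common to most transcripts cannot be seen. No source used here gives the array type, genome build or software versions.

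Log2 was taken with no pseudocount. Of 36685 probe sets, 18511 had 1 gene symbol, 575 several and 17599 none. Those with 1 were averaged per symbol, giving 18166 genes. Groups were compared with limma 3.58.1 (lmFit, eBayes) in R 4.3.3, two-sided, with Benjamini-Hochberg adjustment over all genes and a threshold of 0.05. Differences are NICD1 minus control. Precision is limited by having 3 arrays per group. The background level was set after the data were seen and removed no gene. The named genes were all members, Notch1, and from each partner list every gene that passed and otherwise up to 3 in list order, and further genes named were chosen after their values were seen. The partner lists were other desmosomal cadherins, plakin linkers, intermediate filaments, classical cadherins and catenins, hemidesmosome genes, relatives of Perp, transcription factors, and sheddases and kinases. Members and lists were chosen with earlier results of these data known. The scripts were tested on simulated data with 3 arrays per group. There, 59.7% of simulated log2 changes of 0.5 were recovered, 94.0% of those of 1 and 100% of those of 2. A change of 0.5 or less can therefore be missed. Sequences are from RefSeq (GRCr8), which had entries for 6 of the 8 measured members, and gene order is from the same assembly. Alternatives were array weights, a threshold of 0.01, dropping each array, dropping the dimmest 30% of genes, the brightest probe set, a robust prior with an intensity trend, quantile normalisation once more, median centring and a replicate block. Python 3.11.15 with matplotlib 3.10.9 drew the figures.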

Additional observations from a re-analysis of the deposited data

How the results depend on the processing

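Jup, Pkp1 and Pkp2 passed upward under all 14 alternatives run, with log2 differences of 0.46 to 0.56, 0.56 to 0.70 and 0.30 to 0.35, and the other measured members passed under none of those that tested them. Taking the brightest probe set could not change a member's difference, since each measured member had 1 probe set. Leaving out the dimmest genes removed Dsg2, Dsc2 and Dsc3 from the test. The difference of Dsc3, -0.07, was 0.0031 with array weights and ranged from -0.179 to 0.0721 when 1 array was left out, the highest value being that without control replicate 1. Over all genes the rises and falls numbered 775 and 698 at the 0.01 threshold, and 952 to 1337 and 875 to 1149 when 1 array was left out. With the replicate number as a block, in a paired analysis, 999 genes rose and 920 fell, the desmosomal counts stayed at 3 and 0, the intermediate filament falls were 0 and the rises among sheddases and kinases 2. Same-numbered arrays did not deviate together (correlations of -0.03, -0.01 and -0.01 across genes), so the numbers were not taken to pair the samples.

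At the 0.01 threshold, 1 classical cadherin or catenin and 1 sheddase or kinase rose and 0 intermediate filament genes fell. An intensity trend together with a robust prior gave 2 rises and 2 falls among the relatives of Perp, and falls of 3 intermediate filament genes, 3 classical cadherins or catenins, 1 hemidesmosome gene and 2 sheddases or kinases. Without the dimmest genes these counts were 1 rise and 2 falls, then 2, 3, 1 and 2 falls. Each of these settings also gave rises of 3 classical cadherins or catenins, 3 hemidesmosome genes and 4 transcription factors. Classical cadherin and catenin rises were 3 after a second quantile normalisation as well. A second quantile normalisation gave falls of 2 intermediate filament genes, 2 classical cadherins or catenins and 1 hemidesmosome gene, median centring 2 and 1 for the last 2 lists, and array weights 1 rise among the relatives of Perp. With 1 array left out, intermediate filament falls ranged from 0 to 2, classical cadherin and catenin rises and falls from 1 to 2, hemidesmosome falls from 0 to 1, rises among the relatives of Perp from 0 to 1 and sheddase and kinase rises from 1 to 4. The cause of these shifts was not tested.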

Other observations

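The genes next to each desmosomal gene were examined after its value was known, using the 3 measured protein-coding genes on each side in GRCr8. Around Pkp1, 3 of 6 neighbours rose (limma, Benjamini-Hochberg; 7.45% of all genes were called higher): the cardiac troponin gene Tnnt2 by 0.75 (adjusted p = 0.00530), the kinesin Kif21b by 0.74 (adjusted p = 0.000648) and the slow skeletal troponin gene Tnni1 by 0.36 (adjusted p = 0.0323). All 3 lay below the background level in control cells and above it in NICD1 cells, while Tmem9 (-0.20), Lad1 (0.02) and Mroh3 (0.09) did not pass. Around Jup 0 of 6 neighbours rose and P3h4 fell by 0.26, and around Pkp2 0 of 6 rose and Mzt2b fell by 0.24 (limma; at an unadjusted p under 0.05, 1 neighbour of Jup was higher and 2 lower, and 0 neighbours of Pkp2 were higher and 1 lower). Around Perp 1 of 6 rose, Ifngr1 (0.31), and around Pkp3 1 of 6, B4galnt4 (0.37). Around Dsg2 1 of 6 rose, B4galt6 (0.28), and around Dsc2 and Dsc3, which share neighbours, it was Cdh2 in both cases. At an unadjusted p under 0.05 (limma), 3 neighbours of Pkp1 were higher and 1 lower, and for Perp 1 was higher and 2 lower. The counts were 2 higher and 0 lower around each of Pkp3, Dsg2, Dsc2 and Dsc3.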
